A study of Bos taurus with 6 samples.

Results

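Genes of FGF and ERK signalling were described in cattle (Bos taurus) blastocysts, across 6 RNA-seq libraries. Members were taken by symbol from a list of 10: the ligand FGF4, the receptors FGFR1 and FGFR2, and the ERK readouts ETV4, ETV5, DUSP6, SPRY2, SPRY4, SPRED1 and SPRED2. Of these, 8 were among the 12826 genes of the count table. FGF4 and SPRY4 were matched under no symbol, synonym or numbered name, and were not analysed here. The rarest gene of the table had 38 counts over all libraries.

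The RNA of a library came from pooled day 7 blastocysts, produced in vitro from slaughterhouse material. The 3 BHB libraries came from embryos treated with beta-hydroxybutyrate, a ketone body, and the 3 control (CTRL) libraries from embryos without it. The sources used here state no breed, sire, dose, exposure time or pool size. They also do not say whether pools were cultured separately, so p-values cover only the spread among these libraries, which may be technical. A refit of the authors' deposited table showed that their model matched controls 1, 2 and 3 with BHB libraries 1, 2 and 3. These are called pairs 1 to 3 below; the labels state no pairing.

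Fibroblast growth factors bind receptor tyrosine kinases and, through RAS and RAF, activate the kinase ERK. In the mammalian blastocyst, FGF4 made by epiblast cells is known to favour primitive endoderm over epiblast within the inner cell mass. Cells with active ERK transcribe a set of genes that includes the ETS factors ETV4 and ETV5 and several inhibitors of the pathway: the ERK phosphatase DUSP6 and the Sprouty proteins. The RNA of such genes is often read as a trace of ERK activity. The related Spred proteins also restrain the pathway, and their genes were listed here with the readouts. RNA levels do not measure the activity of the kinase.

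Total counts ran from 6440732 to 8176648 per library, and every BHB library was below every control library. All 14 listed trophectoderm markers, 9 of 12 epiblast markers and 11 of 13 primitive endoderm markers were in the table. Of other cell types that a pool could hold, 3 of 12 cumulus and granulosa markers (FSHR, STAR and CYP19A1), 7 of 8 fibroblast markers and 1 of 8 leukocyte markers (CD68) were in it. The summed cumulus markers ranged from 29.6 to 37.5 CPM in control and from 28.2 to 35.3 CPM in BHB libraries, and the summed fibroblast markers from 123 to 175 and from 84.8 to 137 CPM. CPM are counts scaled to a fixed total, here on library sizes scaled by edgeR's TMM factors. In whole-blastocyst pools, fewer cells of a type and less RNA per cell cannot be told apart.

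Without pairs in the model, none of the 8 measured genes was shown to differ between BHB and control beyond the spread between libraries. By edgeR's quasi-likelihood test with Benjamini-Hochberg adjustment, 0 of 8 passed at 0.05, where 0% of all 12732 tested genes passed. None of the 8 had an unadjusted p under 0.05, which 2.73% of all tested genes had. DESeq2 and limma-voom also called 0 of the 8, and 0.0471% and 0% of all tested genes. The groups overlapped in each of the 8, while they did not overlap in 7.84% of tested genes. Of the 8 log2 fold changes (BHB over control) 4 were positive and 4 negative, with a median of -0.0047, against -0.0050 over all tested genes. Without BHB 1 the median of the 8 was -0.27.

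**Figure D1:**
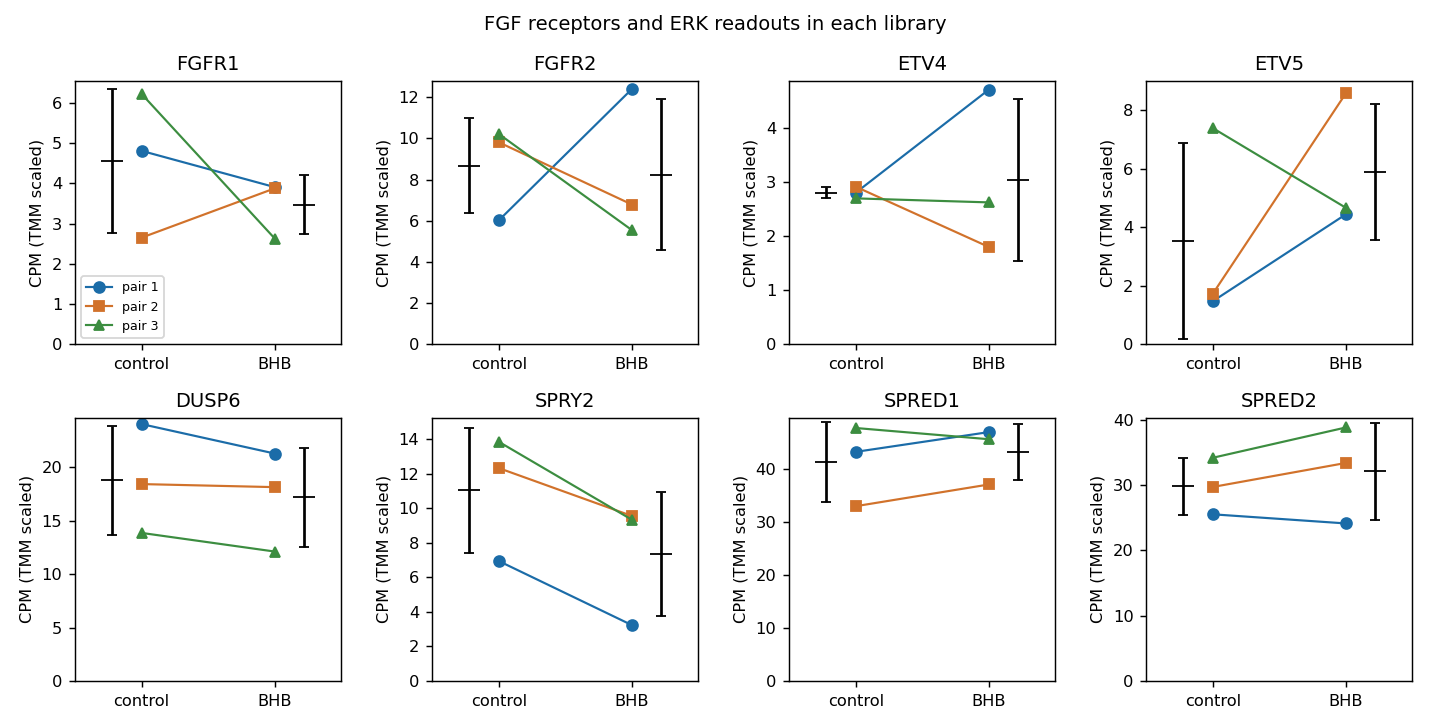
TMM-scaled CPM (vertical axes, from 0) of the 8 measured genes in control and BHB libraries; each line joins the 2 libraries matched in the authors' model, and black marks beside them are the group mean ± SD (n = 3). The groups overlap in every panel, SPRY2 and DUSP6 are lower with BHB in each pair, and ETV5 has its lowest 2 values in controls 1 and 2.

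The receptors FGFR1 and FGFR2 had low counts, and both were lower with BHB in 2 of 3 pairs. FGFR1, a receptor of inner cell mass cells in other mammals, was at 4.81, 2.65 and 6.22 CPM in controls 1 to 3 and at 3.91, 3.88 and 2.63 CPM in BHB libraries 1 to 3. Control 2 and BHB 3 were the lowest, on 20 and 18 counts. The log2 fold change of FGFR1 was -0.39 (SE 0.40; 95% interval -1.31 to 0.52; edgeR adjusted p = 0.999). It was -0.67 without control 2 and -0.10 without control 3.

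FGFR2, which encodes a receptor found in epithelial cells, was at 6.01, 9.81 and 10.2 CPM in the controls and at 12.4, 6.79 and 5.54 CPM with BHB. Both the highest and the lowest of its 6 values were thus in BHB libraries. Its log2 fold change was -0.074 (SE 0.37; 95% interval -0.90 to 0.75), and it became positive without control 2 (0.022), control 3 (0.061), BHB 2 (0.051) or BHB 3 (0.14).

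ETV4 and ETV5 encode closely related ETS transcription factors, and they differed in how much they varied. ETV4 was at 2.81, 2.92 and 2.70 CPM in the controls, on 21, 22 and 23 counts. This spread of 0.11 CPM (SD, n = 3) is smaller than counting error alone would give. With BHB it was at 4.72, 1.80 and 2.63 CPM, so that the controls lay inside the range of the treated libraries. The log2 fold change of ETV4 was 0.12 (SE 0.43; 95% interval -0.86 to 1.10), and -0.34 without BHB 1.

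ETV5 had the widest range of the 8 genes, with its highest library 5.84 times its lowest. It was at 1.47, 1.72 and 7.40 CPM in the controls and at 4.45, 8.59 and 4.67 CPM in the BHB libraries. Controls 1 and 2 were low, on 11 and 13 counts (exact Poisson 95% intervals 5.49 to 19.7 and 6.92 to 22.2), and control 3 was close to the highest BHB library, on 63 counts (48.4 to 80.6). These intervals cover counting error only. ETV5 was higher with BHB in pairs 1 and 2, by log2 ratios of 1.60 and 2.32, and lower in pair 3, by -0.66. Its log2 fold change was 0.72 (SE 0.61; 95% interval -0.64 to 2.09; edgeR adjusted p = 0.999). Without control 3 it was 1.87 (adjusted p = 0.641), and without BHB 2 it was 0.36.

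DUSP6, the phosphatase that removes activating phosphates from ERK, was at 24.0, 18.4 and 13.9 CPM in controls 1 to 3 and at 21.3, 18.1 and 12.1 CPM in BHB libraries 1 to 3. Its 6 values were ordered by pair, with pair 1 highest and pair 3 lowest, and the 2 libraries of a pair lay next to each other in the order. Within pairs the log2 ratios of BHB to control were -0.18, -0.023 and -0.19. The log2 fold change of DUSP6 was -0.13 (SE 0.28; 95% interval -0.75 to 0.50). It became positive without control 1 (0.095) or BHB 3 (0.072).

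SPRY2, a Sprouty inhibitor of receptor tyrosine kinase signalling, had the most negative fold change of the 8 genes. It was at 6.95, 12.3 and 13.9 CPM in the controls and at 3.23, 9.56 and 9.34 CPM in BHB libraries. BHB 1 was the lowest library and control 1 the next lowest, so pair 1 lay below the other 4 libraries. SPRY2 was lower with BHB in 3 of 3 pairs, with log2 ratios of -1.10, -0.37 and -0.57. Together with DUSP6, 2 of the 8 genes (25%) were lower in 3 of 3 pairs, as were 15.7% of all tested genes, and 0 were higher in 3 of 3, as were 14.5%.

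Without pairs, the log2 fold change of SPRY2 was -0.59 (SE 0.43; 95% interval -1.55 to 0.38; edgeR adjusted p = 0.999). With the pairs as a block it was -0.64 (SE 0.25; 95% interval -1.21 to -0.080), with an unadjusted p of 0.0291 and an adjusted p of 0.564 in edgeR. In that fit 1 of the 8 genes, SPRY2, had an unadjusted p under 0.05, as 8.2% of all tested genes had, and 0 passed. DESeq2 with the same block gave SPRY2 an unadjusted p of 0.0775, and called 0 of the 8 genes and 0.359% of all genes with an adjusted p; it gave none to FGFR1 and ETV4. Without BHB 1 the unblocked log2 fold change of SPRY2 was -0.23.

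**Figure D2:**
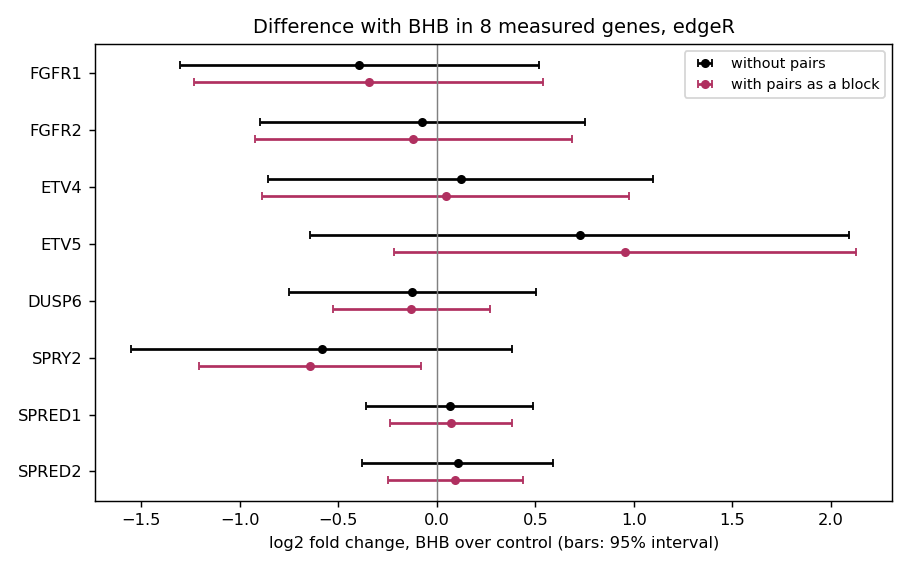
Log2 fold change of BHB over control (horizontal axis) of the 8 measured genes in edgeR, with 95% intervals, fitted without pairs (black) and with the pairs as a block (red). Every interval includes 0 except that of SPRY2 with the block (-1.21 to -0.080), and SPRED1 and SPRED2 have the narrowest intervals without pairs.

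SPRED1 and SPRED2, which encode membrane-linked inhibitors of the step from RAS to RAF, had the most counts of the 8 genes and the tightest estimates. SPRED1 was at 43.3, 33.0 and 47.8 CPM in the controls and at 47.0, 37.1 and 45.7 CPM with BHB. Control 2 and BHB 2 were its lowest libraries. SPRED2 was at 25.5, 29.7 and 34.2 CPM in the controls and at 24.1, 33.4 and 38.8 CPM with BHB. Here pair 1 was the lowest, and BHB 3 the highest. The log2 fold changes of SPRED1 and SPRED2 were 0.064 (SE 0.19) and 0.11 (SE 0.22). As folds, their 95% intervals ran from 0.780 to 1.40 for SPRED1 and from 0.769 to 1.51 for SPRED2. For ETV5 the same interval ran from 0.640 to 4.26, so this depth and spread could not tell a fall of ETV5 from a rise of several fold.

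Libraries were also compared between pairs. A test between the 3 pairs, with treatment in the model, called 0 of the 8 genes in edgeR, where it called 4.12% of all tested genes. At an unadjusted p under 0.05 there were 3 of the 8 (37.5%), against 20.6% of all tested genes. They were SPRY2, DUSP6 and SPRED2, with edgeR adjusted p = 0.0889, adjusted p = 0.134 and adjusted p = 0.232 over all tested genes. DESeq2's likelihood ratio test of pair gave an adjusted p of 0.177 for SPRY2, 0.364 for DUSP6 and 0.534 for SPRED2, and SPRY2 alone of these had an unadjusted p under 0.05 in it. The 2 ran in opposite order: the mean of pair 1 was the highest of the 3 for DUSP6 (22.7 CPM, against 18.3 and 13.0 in pairs 2 and 3) and the lowest for SPRY2 (5.09 CPM, against 10.9 and 11.6). SPRED2 followed the order of SPRY2, with pair means of 24.8, 31.5 and 36.5 CPM.

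Lineage markers are given beside these values. The summed trophectoderm markers were at 20185, 19266 and 13248 CPM in controls 1 to 3 and at 17386, 15309 and 10249 CPM in BHB libraries 1 to 3. They were lowest in pair 3, like DUSP6, and lower with BHB in each pair. Most of this sum was keratin RNA, with 57.2% of it from KRT8. Of 13 tested trophectoderm markers, 5 were lower in 3 of 3 pairs, KRT8 among them, and 3 (CDX2, TEAD4 and TFAP2C) were higher in 3 of 3. The summed primitive endoderm markers ran from 724 to 993 CPM in control and from 867 to 1143 CPM in BHB libraries, with 51.7% of the sum from SPARC. They were lowest in the 2 libraries of pair 1, like SPRY2 and SPRED2, and higher with BHB in each pair. Of 11 tested primitive endoderm markers, 5 (45.5%) were higher in 3 of 3 pairs and 3 (27.3%) were lower in 3 of 3. For trophectoderm markers these shares were 23.1% higher and 38.5% lower, and for all tested genes 14.5% higher and 15.7% lower. Epiblast markers summed to between 787 and 804 CPM in control and between 726 and 912 CPM in BHB libraries. Within that sum the log2 fold changes of the pluripotency factors NANOG and KLF17 were -0.84 (SE 0.21) and 0.72 (SE 0.22). Groups did not overlap for either gene, nor for 7.84% of all tested genes. Neither passed in edgeR, and DESeq2 with the block called NANOG (adjusted p = 0.0085). The part of these lineage markers in the differences between pairs of DUSP6, SPRY2 and SPRED2 was not tested.

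**Figure D3:**
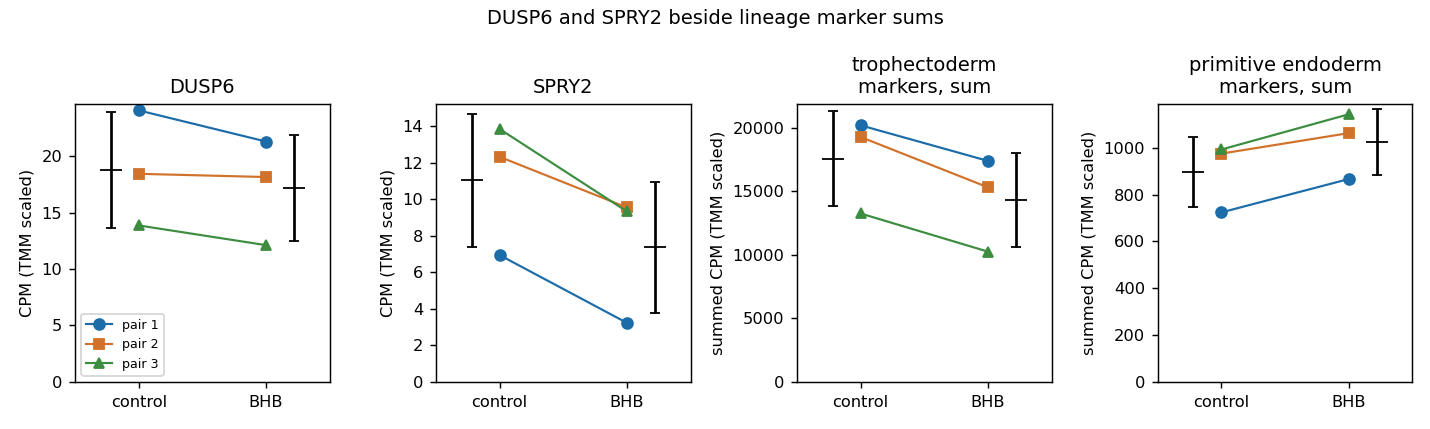
TMM-scaled CPM of DUSP6 and SPRY2 and summed CPM of the 14 trophectoderm and 11 primitive endoderm markers (vertical axes, from 0) in control and BHB libraries; lines join the libraries of a pair, and black marks are the group mean ± SD (n = 3). DUSP6 and the trophectoderm sum are lowest in pair 3, and SPRY2 and the primitive endoderm sum are lowest in pair 1.

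The mean of the 6 measured readouts (ETV4, ETV5, DUSP6, SPRY2, SPRED1 and SPRED2) was set beside its members and other genes. On log2 CPM centred on each gene's own mean, this mean pattern ran from -0.22 in control 1 to 0.26 in control 3, with BHB libraries between -0.057 and 0.11. The 5 genes nearest to it over the 6 libraries, of 10866 with a symbol and enough counts, were RABGAP1, PCNT, NR2C2, HECW2 and ARID5A, at root mean square distances of 0.039 to 0.050 log2 units. The readouts themselves lay at 0.18 (SPRED2), 0.21 (SPRED1), 0.45 (ETV4), 0.46 (DUSP6), 0.61 (SPRY2) and 0.75 (ETV5). The median over all tested genes was 0.31, and 4 of the 6 readouts lay farther than that. This distance grows with a gene's own spread between libraries, counting error included. It therefore cannot tell whether the readouts share a pattern.

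Other genes of the pathway were taken from lists of general knowledge, and none of them passed. Of 35 other FGF genes, receptor genes and heparan sulfate genes that serve FGF binding, 14 were in the table. Among them 0 passed in either direction, 9 were negative and the median log2 fold change was -0.028. The 35 held 21 FGF genes, and of these FGF9 and FGF12 were in the table. FGF9 was at 2.40, 3.05 and 1.41 CPM in controls 1 to 3 and at 1.89, 1.11 and 0.73 CPM in BHB 1 to 3 (log2 fold change -0.86, SE 0.53). It was lower in 3 of 3 pairs, on 5 to 23 counts a library. The log2 fold changes of KLB, a co-receptor of endocrine FGFs, and of the syndecan gene SDC1 were -0.82 (SE 0.73) and -0.33 (SE 0.26). The receptors FGFR3 and FGFR4 had values of -0.014 (SE 0.30) and 0.017 (SE 0.21).

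All 40 listed adaptors, RAS proteins, kinases and scaffolds from the receptor to ERK and the kinases that ERK activates were in the table. None passed, 21 were negative, and their median was -0.015. RRAS, a GTPase related to RAS, had the smallest p of this list: the controls had 2.27, 3.05 and 2.47 CPM and the BHB libraries 4.45, 4.71 and 5.84 CPM. Groups did not overlap in 3 of the 40 (RRAS, MAPK3 and the scaffold gene WDR83), against 7.84% of all tested genes. The log2 fold change of RRAS was 0.94 (SE 0.34; unadjusted p = 0.0215 and adjusted p = 0.999 in edgeR). GRB2, the adaptor that links receptors to the RAS activator SOS, had 57.0, 42.4 and 89.6 CPM in controls, against 98.9, 80.3 and 101 CPM with BHB. It was higher in 3 of 3 pairs, with overlapping groups and a log2 fold change of 0.56 (SE 0.25). With the block its unadjusted p was 0.00262 and its adjusted p 0.345 in edgeR. In that fit 3 of the 40 had an unadjusted p under 0.05, as 8.2% of all tested genes had. In 3 of 3 pairs, 5 of the 40 (12.5%) were higher and 9 (22.5%) were lower, against 14.5% and 15.7% of all tested genes. MAPK3, which encodes an ERK kinase, had a log2 fold change of -0.79 (SE 0.39), on 12 to 38 counts a library.

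Of 33 other ERK targets and inhibitors, 21 were in the table, and 0 passed in either direction. Of these 15 were positive, and the median log2 fold change was 0.12, against -0.0050 over all tested genes. The median log2 ratios of the list within pairs 1, 2 and 3 were 0.14, 0.36 and -0.24, so the direction turned in pair 3. In 3 of 3 pairs, 7 of the 21 (33.3%) were higher and 2 (9.52%) were lower with BHB, where 14.5% and 15.7% of all tested genes were. The 7, named after their values were seen, were the immediate early genes EGR1, FOSL1, JUNB, IER2 and IER3, the ETS repressor gene ERF and ERRFI1, which encodes an inhibitor of the EGF receptor. The early genes FOS, DUSP1 and MYC of the same list were not higher in each pair. FOS and DUSP1 were lower with BHB in pair 3 (log2 ratios -0.37 and -0.30), and MYC in pairs 2 and 3 (-0.17 and -0.0086). EGR1 had 2.00, 2.78 and 7.40 CPM in controls, against 4.98, 8.17 and 8.61 CPM with BHB. JUNB had 11.6, 7.95 and 12.3 CPM in controls, against 12.7, 14.5 and 15.3 CPM. The groups overlapped for EGR1 and did not for JUNB, the 1 of the 21 without overlap, against 7.84% of all tested genes. Their log2 fold changes were 0.82 (SE 0.49) and 0.41 (SE 0.25), and that of IER3 was 0.33 (SE 0.17). With the pairs as a block, EGR1 was at 0.96 (SE 0.35), with an unadjusted p of 0.019 and an adjusted p of 0.534 in edgeR. In that fit 1 of the 21, EGR1, had an unadjusted p under 0.05, as 8.2% of all tested genes had. Without control 2 or BHB 2 the median of the list was 0.033 and 0.035, and without control 3 it was 0.23. With the block and without pair 3 it was 0.36. Such early genes respond to many stimuli besides FGF.

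SPRY1, another Sprouty gene, had 2.00, 3.58 and 3.64 CPM in controls, against 1.35, 2.49 and 0.88 CPM with BHB. It was lower in 3 of 3 pairs, like SPRY2, on 6 to 31 counts a library. Its log2 fold change was -0.96 (SE 0.50; unadjusted p = 0.0849 and adjusted p = 0.999 in edgeR). SPRY3 had log2 ratios of 0.30, 3.38 and -1.16 in the 3 pairs, on 2 to 36 counts a library. The log2 fold change of SPRY3 was 0.089, with a 95% interval of -1.63 to 1.81. This interval held the values of SPRY1 and SPRY2 and also rises as large, so SPRY3 had no clear direction.

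**Figure D4:**
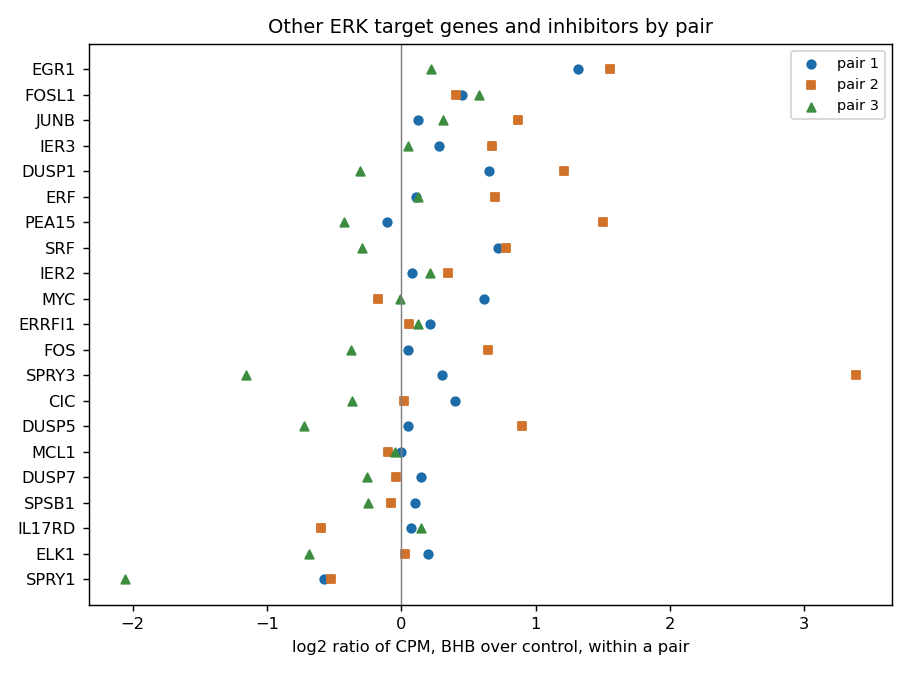
Log2 ratio of CPM, BHB over control, within each of the 3 pairs (horizontal axis) for the 21 measured ERK targets and inhibitors outside the 8 genes, ordered by fold change. EGR1, FOSL1, JUNB, IER3, ERF, IER2 and ERRFI1 lie above 0 in each pair, and SPRY1 and MCL1 lie below 0 in each pair.

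Other receptor tyrosine kinases and their ligands share the RAS to ERK route; the list also held IGF2R, which has no kinase domain. Of 25 listed, 17 were in the table, 0 passed, 10 were negative and the median log2 fold change was -0.057. That median was -0.16 without control 1, -0.14 without control 3, -0.15 without BHB 2 and 0.054 without BHB 3. The 3 with the smallest p were IGF2R, the receptor that clears IGF2 (-0.42, SE 0.19), KITLG, the ligand of KIT (0.76, SE 0.48), and the insulin receptor gene INSR (-0.41, SE 0.26). IGF2R was the 1 of the 17 whose groups did not overlap, against 7.84% of all tested genes. Between pairs, 3 of the 17 passed in edgeR, against 4.12% of all tested genes, named after their values were seen: KIT (adjusted p = 0.0104), ERBB3 (adjusted p = 0.0182) and PDGFRA (adjusted p = 0.0225). KIT was at 163 and 188 CPM in the libraries of pair 1 and between 296 and 368 CPM in the other 4. ERBB3 was instead highest in pair 1, with a mean of 113 CPM against 75.7 and 59.4 CPM in pairs 2 and 3.

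**Figure D5:**
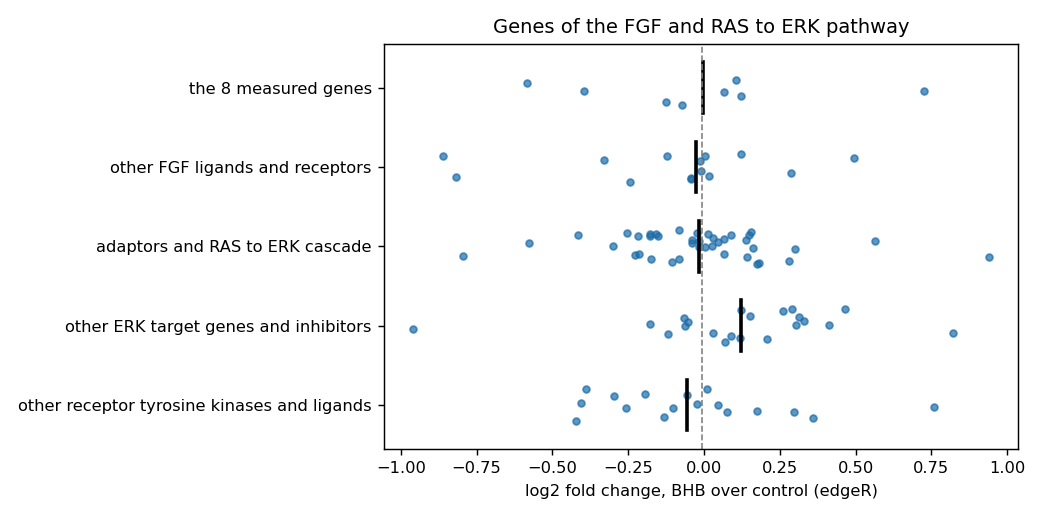
Log2 fold change of BHB over control in edgeR (horizontal axis) for each tested gene (points, spread vertically at random) of the 8 measured genes and the 4 other pathway lists; black bars are list medians and the dashed line is the median of all tested genes. Medians lie between -0.057 and 0.12, and no gene passed the test.

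In the authors' deposited table, none of the 8 genes had an adjusted p under 0.05, where 5.04% of its genes had. The smallest p of the 8 in the authors' deposited table was that of SPRY2 (p = 0.0137, adjusted p = 0.128), followed by DUSP6 (p = 0.108, adjusted p = 0.480). A refit of the counts gave those p-values when pair and treatment were tested together against neither, so they do not separate treatment from pair. The log2 fold changes in the authors' deposited table, turned to BHB over control, were 1.06 for ETV5 and -0.66 for SPRY2.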

How the data were processed

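The authors deposited a table of raw counts per gene for the 6 libraries, and a table of results of their comparison. The submitters' processing notes name featureCounts, STAR and DESeq2; tool versions, genome build, annotation and strand setting: not given in the sources used here. In the authors' deposited table, per the file headers, genes have a log2 fold change with error and statistic (each a score), p-values before and after adjustment, and a mean normalized signal.

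Groups follow the labelled treatment; replicate numbers follow the order of deposit. The counts were filtered with edgeR's filterByExpr, which left 12732 genes and removed 94, scaled by TMM and tested with edgeR 4.0.16 (quasi-likelihood, R 4.3.3) with no covariate; DESeq2 1.42.0 and limma 3.58.1 (voom) were alternatives. Scripts were tested on simulated data. A DESeq2 likelihood ratio test of pair and treatment matched 100% of the deposited p-values (to 1e-06) when control 1, 2 and 3 were matched with BHB 1, 2 and 3, and at most 0.398% under the other 5 matchings. Deviations from group means correlated over genes at 0.46, 0.32 and 0.33 within these pairs, which were used as a block. Levels of different genes were not compared, as no transcript lengths were at hand, and no coordinates are given, as no build is named.

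The members and lists were chosen with earlier results of these data known. Named genes are the members, the 3 genes of each list with the smallest p where none passed, and the 5 genes nearest to the mean readout pattern (mean log2 CPM 1 or more, prior count 2); others were chosen after their values were seen. Some genes of the lists are not reported here.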

Additional observations from a re-analysis of the deposited data

How the results depend on the processing

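No gene passed between BHB and control in edgeR, and 0 of the 8 measured genes passed under any of the 17 alternatives, where SPRED1, SPRED2 and DUSP6 alone remained under the stricter filter on low counts. Over all genes, DESeq2 called 6, DESeq2 with the replicate block 36, and edgeR with the replicate block 0; the block changed no call of the 8 genes. Leaving out 1 library gave 0 to 1 genes, and the block without pair 1, 2 or 3 gave 4, 16 and 4. Between pairs edgeR called 524 genes, and 263 under the stricter filter, which tests fewer genes.

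Direction was kept under every alternative that tested them by ETV5 (log2 fold changes 0.30 to 1.98) and SPRY2 (-0.83 to -0.23). With 1 library left out, FGFR1 ran from -0.67 to -0.10, FGFR2 from -0.49 to 0.14, ETV4 from -0.34 to 0.39, DUSP6 from -0.31 to 0.095, SPRED1 from -0.073 to 0.18 and SPRED2 from -0.053 to 0.28. With the replicate block, FGFR1 turned to 0.11 without pair 3, FGFR2 to 0.097 and 0.27 without pairs 2 and 3, and ETV4 to -0.35 without pair 1. The cause was not tested. The pairs come from the authors' model and not from the labels. FGFR1, ETV4 and ETV5 had 11 to 63 counts a library, which limits their precision.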
